A study of Drosophila melanogaster with 12 samples.

Results

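The Polycomb group genes described here are the 9 genes that encode the core subunits of the Polycomb repressive complexes of Drosophila: Pc, ph-p, ph-d, Psc, Su(z)2 and Sce for PRC1, and E(z), esc and Su(z)12 for PRC2. They were chosen by name, as 9 of the 15998 genes listed in the sense and antisense count tables. Nascent RNA, the RNA still attached to transcribing polymerase, was sequenced strand by strand from 4 cell lines, with 2 libraries per line and 8 in all. S2-DRSC is an embryo-derived cell line and served as the wild-type parent. G3, A7 and B2 are mutant clones made from it, each a single clone, with a deletion of 67 bp around the start codon of upSET in G3, deletions of 7 bp near the start codon in A7, and a deletion of 1 bp further into the coding sequence in B2. Beyond the lesions in upSET, the labels give no agent or allele that separates the lines. Nothing in the sources used here says that the 2 libraries of a line came from separate cultures, so the p-values measure only the spread between libraries.

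PRC2 places methyl groups on lysine 27 of histone H3, and PRC1 binds this mark, adds ubiquitin to histone H2A and compacts chromatin. Together they keep developmental regulators such as the Hox genes silent in cells where these genes are not needed. The protein encoded by upSET has a SET domain and is linked to histone deacetylation at active genes. The comparison of each clone with S2 therefore asks whether the transcription of the Polycomb genes themselves differs between an upSET mutant clone and S2. Each clone grew from a single transfected and sorted cell. An effect of the upSET lesion cannot be told apart from other differences between that clone and S2.

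The guide target sequences used to make the clones are shown because they define the groups, with the 3 bases of the protospacer adjacent motif, where Cas9 binds, in capitals. Guide upset1 was used for G3 and A7 and upset7 for B2. The first lies on the minus strand of chr3L:14000954-14000976 and the second on the plus strand of chr3L:14002035-14002057. The table of oligonucleotides names no genome build, and both positions fall inside the extent of upSET, listed as CG9007, in the dm3 assembly.
upset1: aaccgagtcgtgactggacaTGG
upset7: acagcagatcagcctaccgcAGG

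Sense counts summed to between 8333319 and 10902304 per library in replicate 1 and to between 4738785 and 5427807 in replicate 2, and antisense counts made up between 8.59% and 11.0% of a library. Levels are given as CPM, the sense counts scaled to a common library size. CG9007, the targeted gene, had 543.9 and 566.4 CPM in S2, 463.6 and 460.4 in G3, 760.6 and 605.4 in A7, while B2 had 664.4 and 679.3. It did not pass the test in any clone (edgeR adjusted p between 0.553 and 0.999), so its level offers no check of the labels. Of 10 hemocyte markers, the blood-cell genes by which S2 cells are known, srp had between 926.5 and 1142 CPM in the 8 libraries, while He and nimC1 had at most 0.660 CPM. The 10 markers of other cell types summed to between 72.3 and 120.3 CPM, against 13618 to 19598 for the hemocyte markers, most of which came from ush at 10994 to 17810 CPM. Several hemocyte markers were low, with Hml at 0.881 to 30.5 CPM and eater at 8.13 to 24.9 CPM, under the 49.2 to 65.9 CPM of the neuronal gene elav. The hemocyte markers moved both ways. Cg25C, a collagen gene of hemocytes, had 8.92 and 8.29 CPM in S2 and between 70.3 and 423.2 CPM in the 6 mutant libraries, whereas Pxn, the peroxidasin gene, had 806.9 and 790.0 CPM in S2 and 227.9 and 236.3 CPM in A7. Of the 8 that could be tested, 2 rose and 0 fell in G3, 1 rose and 1 fell in A7, and 0 were called in B2 without the block (edgeR). With the block, 2 rose and 1 fell for G3, 4 rose and 2 fell for A7, and 1 rose for B2 (edgeR). Of the 7 tested markers of other cell types 0 were called against S2, with or without the block. Of all tested genes, 0.603%, 0.375% and 0.0104% were called in G3, A7 and B2 without the block. With the block these shares were 5.85%, 3.67% and 0.427%. The part of such differences between the clones in the values below was not tested.

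All 9 Polycomb genes were transcribed above the limit for testing (1 CPM or more in 2 or more libraries), which 9612 genes passed. Divided by the length of the gene's extent, the S2 levels differed widely between the 9 genes. Psc and Su(z)2, the homologous RING finger subunits of PRC1, were highest at 14.8 ± 2.01 and 14.6 ± 2.54 CPM per kb (SD, n = 2). The WD40 subunit gene esc followed at 13.3 ± 0.412 CPM per kb. Sce, which encodes the RING ubiquitin ligase, had 11.9 ± 1.54 CPM per kb. Su(z)12, the zinc finger subunit that stimulates PRC2, had 10.6 ± 0.188 CPM per kb, and ph-d, one of the paired polyhomeotic genes, had 9.47 ± 0.251 CPM per kb. Each neighbour in this order from Psc to Su(z)12 differed from the next by less than the larger of their SDs, and Su(z)12 and ph-d did not overlap. Below them came the histone methyltransferase gene E(z) at 4.87 ± 1.04 CPM per kb and the chromodomain gene Pc at 2.10 ± 0.200 CPM per kb, with no overlap between them. The lowest was ph-p at 0.400 ± 0.123 CPM per kb, at percentile 12.6 of the tested genes, whose median was 7.68 CPM per kb. The extents include introns, so these levels per kb depend on how much of each gene is transcribed.

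Across the 8 libraries ph-p varied most and Su(z)12 least. The highest library was 4.40 times the lowest for ph-p and 1.18 times for Su(z)12. The coefficient of variation over libraries was 53.7% for ph-p, between 5.45% and 18.6% for the other 8, and 20.2% for the median tested gene.

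**Figure D1:**
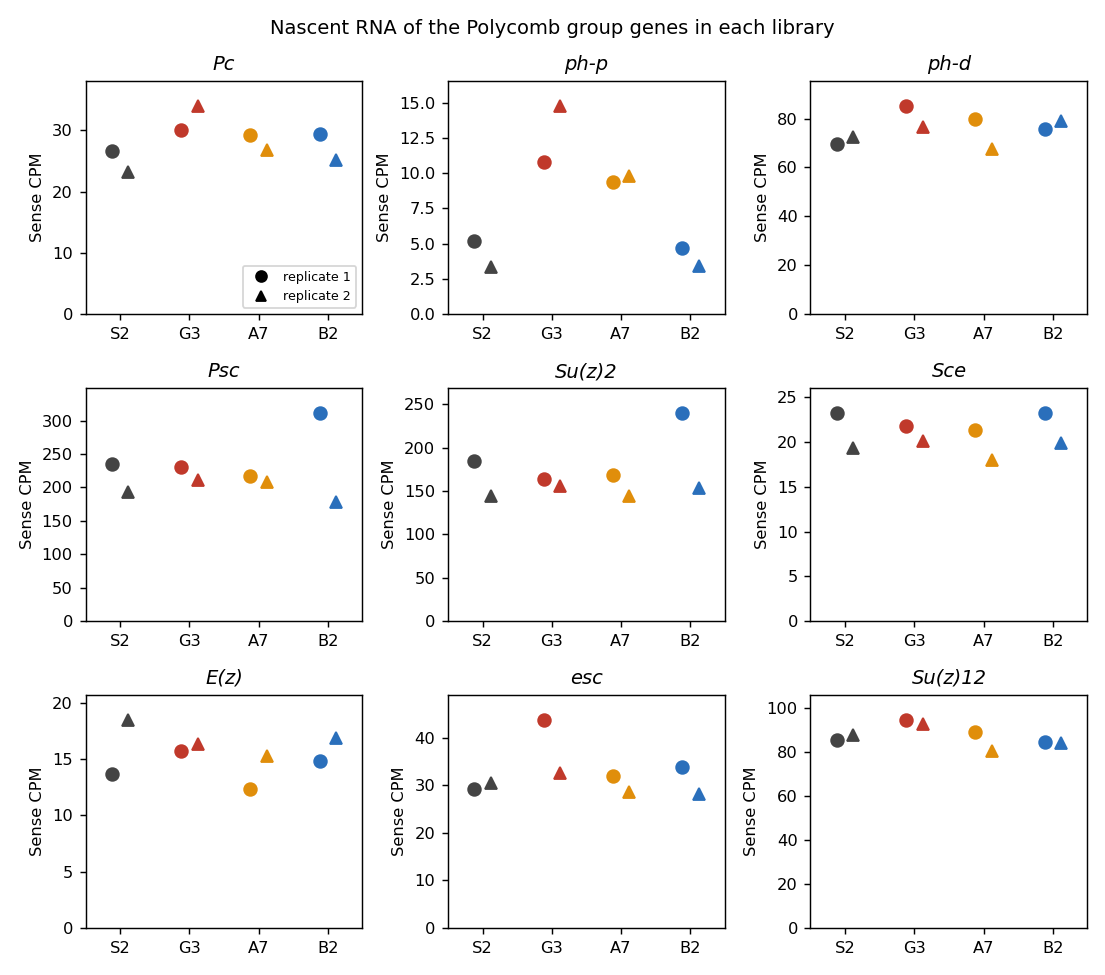
Sense CPM (y axis, from 0) of each of the 9 Polycomb genes in the 4 cell lines (x axis). Each point is 1 library, a circle for replicate 1 and a triangle for replicate 2. For ph-p the G3 and A7 libraries sit between 9.34 and 14.8 CPM, above the S2 and B2 libraries at 3.35 to 5.21 CPM.

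Of the PRC1 genes, ph-p stood apart. It encodes the proximal of the paired polyhomeotic proteins, whose SAM domains join PRC1 complexes to each other. It lies at chrX:2020237-2030949 in dm3, with ph-d at chrX:2009871-2017359. Its level was 5.21 and 3.35 CPM in S2, from 45 and 19 counts. In G3 it was 10.8 and 14.8 CPM, from 110 and 76 counts. Both G3 libraries were above both S2 libraries, without overlap. A7 had 9.34 and 9.80 CPM, and B2 had 4.71 and 3.42 CPM. A7 was thus also above S2, while B2 lay within the S2 range.

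The log2 fold change of ph-p against S2 was 1.55 in G3 (SE 0.31, 95% interval 0.81 to 2.28), which is 2.92-fold. Without a replicate block the difference did not pass the test (edgeR adjusted p = 0.116). With the replicate number as a block it did, at a log2 fold change of 1.52 (edgeR adjusted p = 0.0227). DESeq2 also called it (adjusted p = 0.0426), as did edgeR without the filter on low counts (adjusted p = 0.0409). Over the other alternatives the adjusted p lay above 0.05 and reached 0.442 when G3 replicate 2 was left out.

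In A7 the log2 fold change of ph-p was 1.14 (SE 0.31, edgeR adjusted p = 0.309, or 0.0854 with the block), and in B2 it was -0.07 (SE 0.33, edgeR adjusted p = 0.999). The difference between the clones was tested directly. G3 exceeded B2 by 1.62 on the log2 scale (SE 0.32, edgeR adjusted p = 0.132), and this passed with the replicate block at 1.59 (adjusted p = 0.0248). A7 exceeded B2 by 1.21 (edgeR adjusted p = 0.244, or 0.0761 with the block). G3 and A7 were not distinguished from each other, with a difference of 0.41 and a 95% interval of -0.29 to 1.11.

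**Figure D2:**
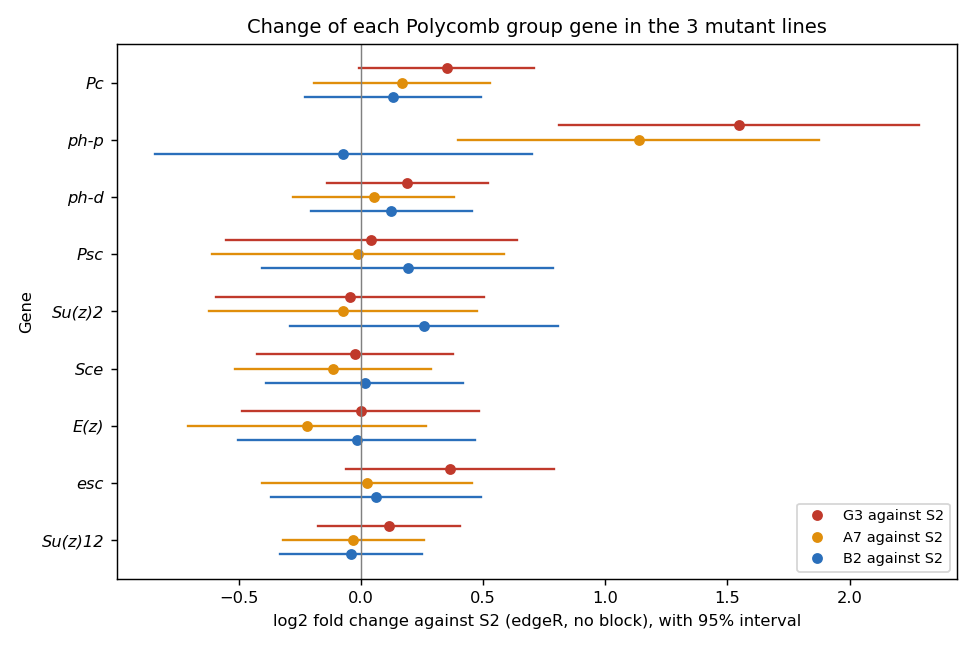
Log2 fold change against S2 (x axis) of each Polycomb gene (y axis) in G3, A7 and B2, as points with 95% intervals from the edgeR fit without a block. The ph-p points of G3 and A7, at 1.55 and 1.14, lie to the right of 0 with their intervals, and the intervals of the other genes cross 0.

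The ph genes lie in tandem, 2877 bp apart, and are near copies of each other. Reads that match both were lost because only reads with a single place of alignment were kept, so the split of reads between them is uncertain. The next gene on the other side of ph-d is csw, which encodes a tyrosine phosphatase. In G3 csw was higher by 0.40 on the log2 scale with the block (edgeR adjusted p = 0.0459, or 0.264 without it). In A7 and B2 csw changed by 0.03 and 0.08 with the block (edgeR adjusted p = 0.896 and 0.820). The nearest listed gene on the side of ph-p is CG3835. Its values with the block were 0.21, -0.25 and -0.32 in G3, A7 and B2 (edgeR adjusted p between 0.567 and 0.642). The level of ph-d itself was 69.6 and 72.3 CPM in S2, 85.1 and 76.7 in G3, 79.6 and 67.4 in A7, with 75.6 and 79.1 in B2. Its log2 fold changes were 0.19, 0.05 and 0.13 in G3, A7 and B2, and none passed the test (edgeR adjusted p between 0.725 and 0.999).

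Within a library the share of ph reads on ph-p needs no scaling. Of the reads on both genes, ph-p held 6.97% in S2 replicate 1 (95% Wilson interval 5.25% to 9.19%, 646 reads) and 4.43% in S2 replicate 2 (2.85% to 6.81%, 429 reads). G3 had 11.3% and 16.1%, and A7 had 10.5% and 12.7%. B2 had 5.87% and 4.15%, with intervals that overlap those of S2. The shares of G3 and of A7 were each above every share of S2 and B2, and these intervals cover counting error only. When the counts of both genes were summed into 1 feature, the log2 fold change in G3 was 0.32 (edgeR adjusted p = 0.433), since most reads lie on ph-d.

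**Figure D3:**
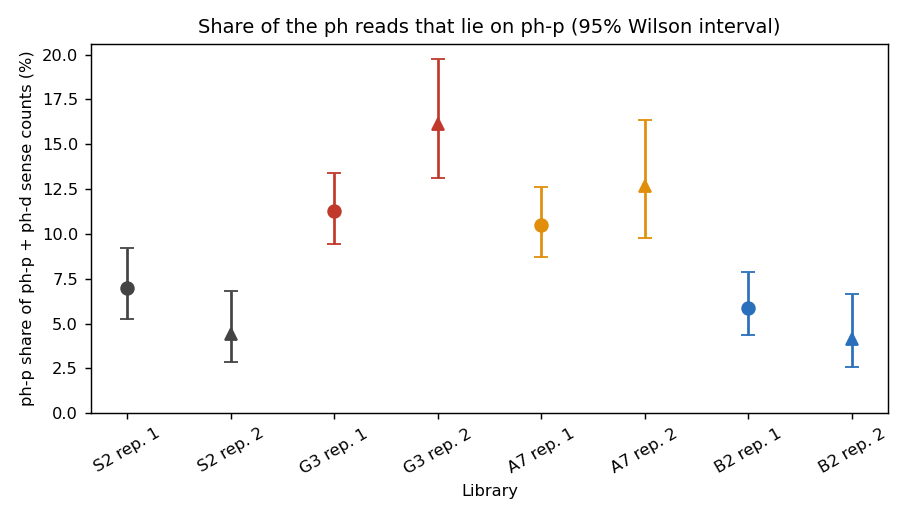
Share of the sense counts on ph-p and ph-d together that lie on ph-p, in percent (y axis), for each library (x axis), with 95% Wilson intervals. The G3 and A7 libraries lie between 10.5% and 16.1%, and the S2 and B2 libraries between 4.15% and 6.97%.

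Antisense counts on ph-p differed between libraries in another way. They numbered 22 and 2 in S2, 17 and 3 in G3, 8 and 3 in A7, while B2 had 15 and 2, so the replicate 1 libraries held most of them. In S2 replicate 1 they made up 32.8% of the reads on ph-p (95% Wilson interval 22.8% to 44.7%). The sense level less the antisense level, a quantity chosen after the data were seen, was 2.66 and 3.00 CPM in S2 and 9.14 and 14.2 CPM in G3. A7 had 8.59 and 9.21 CPM and B2 had 2.95 and 2.99 CPM. The log2 ratio of mean levels to S2 was 2.04 for G3, 1.65 for A7 and 0.07 for B2 after this subtraction, against 1.58, 1.16 and -0.07 before it.

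None of the other PRC1 genes passed the test in any clone, with or without the block. Pc, which binds methylated histone H3, had 26.6 and 23.3 CPM in S2, 30.0 and 34.0 in G3, 29.2 and 26.8 in A7, with 29.3 and 25.2 in B2. The G3 and A7 libraries were above both S2 libraries, and B2 overlapped S2. The log2 fold change in G3 was 0.35 (SE 0.15, edgeR adjusted p = 0.463, or 0.204 with the block).

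Psc, which helps to compact nucleosomes, had 235.0 and 193.7 CPM in S2, 230.5 and 211.6 in G3, 217.6 and 207.9 in A7, while B2 had 311.5 and 177.7. Its neighbour and relative Su(z)2 had 185.2 and 144.6 CPM in S2, 164.1 and 155.9 in G3, 168.9 and 144.8 in A7, with 240.4 and 153.8 in B2. For both genes B2 replicate 1 was the highest of the 8 libraries and B2 replicate 2 was among the lower ones, so the means of B2 rest on 1 library. The log2 fold change of Psc in B2 was 0.19, or -0.27 without B2 replicate 1, and that of Su(z)2 was 0.26, or -0.10 without it. Sce ranged between 18.0 and 23.3 CPM in the 8 libraries, and its log2 fold changes lay between -0.11 and 0.02.

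The PRC2 genes gave no call either. The level of esc, whose product reads the methyl mark, was 29.2 and 30.5 CPM in S2, 43.8 and 32.6 in G3, 32.0 and 28.6 in A7, while B2 had 33.8 and 28.2. G3 replicate 1 was the highest, and both G3 libraries lay above S2. The log2 fold change in G3 was 0.36 (SE 0.18, edgeR adjusted p = 0.538, or 0.184 with the block). This value rested on G3 replicate 1, as it was 0.13 without that library and 0.60 without G3 replicate 2. The whole of esc, 2241 bp, lies inside the listed extent of Pde1c, and its sense counts were between 74.1% and 81.3% of those of Pde1c in every library. The values of esc and Pde1c are therefore not independent, and which reads they share cannot be read from the counts.

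E(z), the catalytic subunit, had 13.7 and 18.5 CPM in S2, 15.7 and 16.3 in G3, 12.4 and 15.3 in A7, with 14.8 and 16.9 in B2, and the clones overlapped S2. Su(z)12 had 85.6 and 87.8 CPM in S2, 94.8 and 93.0 in G3, 89.2 and 80.5 in A7, while B2 had 84.6 and 84.1. Its log2 fold changes were 0.12, -0.03 and -0.04, with an SE of 0.12 in each clone, the smallest of the 9 genes. The 95% interval of Su(z)12 in G3 was -0.17 to 0.40, so a rise of up to 1.32-fold was within reach of the error.

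In counts, 0 of the 9 genes passed the edgeR test without the block in G3, A7 or B2, against 0.603%, 0.375% and 0.0104% of all tested genes. At an unadjusted p under 0.05 the members numbered 1 for G3, 1 for A7 and 0 for B2, each time ph-p, beside 11.1%, 8.75% and 3.25% of all tested genes. With the block the members that passed numbered 1 for G3 and 0 for both A7 and B2, against a background of 5.85%, 3.67% and 0.427%. DESeq2 called 1, 0 and 0 of them, beside 2.37%, 1.86% and 0.395% of the genes to which it gave an adjusted p. For the mean of the 3 clones 0 of 9 passed, against 0.156% of genes, and ph-p had the largest value at 0.87 (SE 0.27, edgeR adjusted p = 0.510). Between clones 0 of 9 passed for G3 against B2 (background 0.239%), A7 against B2 (0.291%) and G3 against A7 (0.208%). With the block 1 of 9 passed for G3 against B2, where 3.85% of genes did, and 0 of 9 for A7 against B2, where 3.90% did.

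The 2 libraries of a clone were also set against those of S2 without a model. In G3, 5 of 9 genes (Pc, ph-p, ph-d, esc and Su(z)12) had both libraries above both of S2, against 17.1% of all genes, and 0 of 9 had both below, against 21.1%. In A7 the numbers were 2 (Pc and ph-p) and 0, against 16.7% and 19.5%. In B2 they were 1 (ph-d) and 1 (Su(z)12), against 13.1% and 13.3%. Over the 9 genes the median log2 fold change came to 0.12 for G3, -0.01 for A7 and 0.06 for B2, beside -0.06, -0.05 and -0.03 over all tested genes. These comparisons share the S2 libraries, and the levels compared were scaled by TMM. With library size alone the log2 fold changes in G3 were 0.23 for Pc, 1.43 for ph-p, 0.07 for ph-d and -0.003 for Su(z)12. The counts without overlap were not repeated with that scaling.

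The libraries with the same number varied together, and the Polycomb genes were followed in the comparison of replicate 2 with replicate 1. On sense counts 0 of 9 genes passed, against 17.5% of all tested genes. Su(z)2 was lower in replicate 2 by 0.32 (log2 fold change -0.32, edgeR adjusted p = 0.0558) and Psc by the same amount (-0.32, adjusted p = 0.100). E(z) had a positive value of 0.25 (edgeR adjusted p = 0.168). On antisense counts ph-p and Psc, 2 of the 8 genes tested, fell by 1.70 and 1.36 in replicate 2 (edgeR adjusted p = 0.0387 and 0.0323). Here 26.4% of all tested genes passed, and the median antisense change over all genes was -0.42.

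Over the 8 libraries the log2 CPM of Psc and Su(z)2 had a Pearson's r of 0.92 and a Spearman's rho of 0.90, the highest of the 36 pairs among the 9 genes. Without B2 replicate 1 these values were 0.70 and 0.86 over 7 libraries. The pairs as a whole ranged from -0.51, between Sce and E(z), to 0.92, with a median of 0.28. The genes outside the 9 whose levels were most like the mean standardized level of the 9 were CG42374, alph, CG10777, CG31320 and CG14442, with r between 0.94 and 0.96 over 8 libraries. The 9 genes themselves had r with this mean between -0.21, for E(z), and 0.86, for esc, so the mean is not a profile that all 9 share. All these correlations share the libraries, their depth and their scaling, and are given as description.

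Antisense counts were few on most of the Polycomb genes. Over the 8 libraries esc had between 0 and 3 of them, and was not tested. Pc had between 4 and 22, Su(z)2 between 3 and 21, Psc between 3 and 49, ph-d between 5 and 32, and Sce between 7 and 24. E(z) had between 10 and 47, which was 11.2% to 22.7% of its reads. Its extent overlaps that of CG34001 by 62 bp, and that of Sce overlaps CG12883 by 84 bp.

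Su(z)12 was the exception, with 776 and 637 antisense counts in S2, 1107 and 532 in G3, 1029 and 632 in A7, with 865 and 441 in B2. These exceeded its sense counts in every library. Rpn1, which encodes a proteasome subunit, lies at chr3L:19907907-19911160 and overlaps Su(z)12 by 2824 bp. The antisense counts of Su(z)12 were between 97.8% and 103.0% of the sense counts of Rpn1 in the 8 libraries. The antisense level of Su(z)12 thus tracked Rpn1 in every library, though whether the reads are the same cannot be read from the counts. In the antisense comparisons 0 of 8 Polycomb genes passed in G3, A7 or B2 (edgeR adjusted p at least 0.998), against 0.220%, 0.110% and 0% of the 7276 genes tested.

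**Figure D4:**
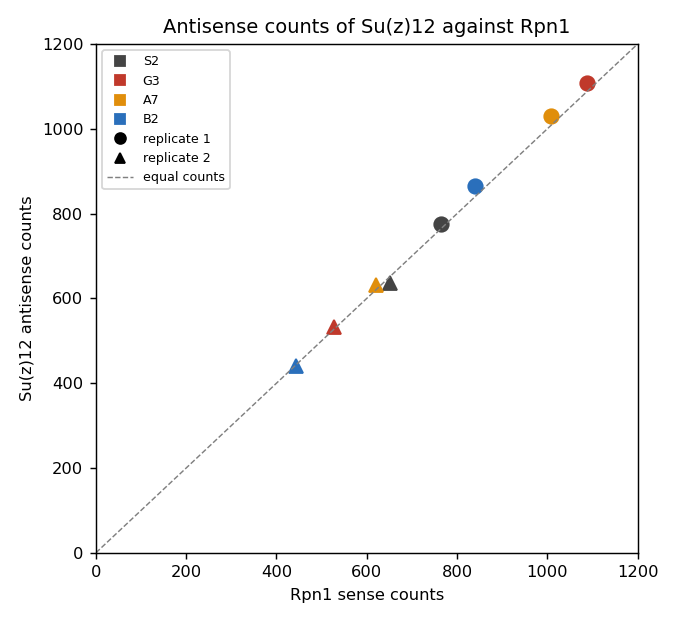
Antisense counts of Su(z)12 (y axis) against sense counts of Rpn1 (x axis), 1 point per library, with color for the cell line and shape for the replicate. All 8 points, from 441 to 1107 antisense counts, lie close to the dashed line of equal counts.

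Genes that work with the 9 core subunits were read from lists. Of 17 accessory genes, including those of the H2A deubiquitinase PR-DUB, 0 passed the edgeR test in any clone without the block, where 0.603%, 0.375% and 0.0104% of all tested genes did in G3, A7 and B2. With the block 1 of 17 passed in G3 and 1 in B2, where 5.85% and 0.427% of all genes did. There jing, whose product is a PRC2 accessory zinc finger protein, fell in G3 and corto, a chromodomain protein gene that interacts with Polycomb proteins, rose in B2. The level of jing was 70.9 and 49.2 CPM in S2 and 39.8 and 29.7 in G3, without overlap, and its log2 fold change was -0.78 (SE 0.13, edgeR adjusted p = 0.0107 with the block, 0.257 without). Without S2 replicate 1 the value for jing was -0.49 in the fit with no block. The level of corto was 18.0 and 14.8 CPM in S2 and 39.6 and 29.1 in B2, also without overlap. Its log2 fold change was 1.07 (SE 0.14, edgeR adjusted p = 0.0217 with the block, 0.444 without). Of all tested genes 21.1% had both G3 libraries below both of S2, and 13.1% had both B2 libraries above both of S2. The medians of the list were 0.01, -0.07 and -0.03 in G3, A7 and B2.

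Recruiter genes encode proteins that bind Polycomb response elements, the DNA sites where the complexes assemble. Of 11 such genes 0 passed without the block in any clone (background 0.603%, 0.375% and 0.0104% in G3, A7 and B2). With the block 1 of 11 passed, in A7, where 3.67% of all genes did. This was pho, which encodes the zinc finger protein Pleiohomeotic and was higher in A7. The level of pho was 168.9 and 181.8 CPM in S2, 199.8 and 228.7 in G3, 242.6 and 277.8 in A7, while B2 had 210.0 and 242.8. Every mutant library was above both S2 libraries. Of all tested genes, 17.1%, 16.7% and 13.1% had both libraries of G3, A7 and B2 above both of S2. The share that did so in every clone was not counted. In A7 the log2 fold change was 0.57 (SE 0.10, edgeR adjusted p = 0.0172 with the block, 0.270 without). The gene of the list with the lowest mean change was grh, at 6.60 and 1.06 CPM in S2 and between 1.55 and 4.52 CPM in the clones (edgeR adjusted p = 0.789 for the mean of the clones).

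The list of Polycomb targets held 36 genes, mostly homeobox and other developmental regulators. Only ap and pnr had a mean over 100 CPM, and the other 34 were at low levels. The LIM-homeobox gene ap had 2169 and 2059 CPM in S2, 1397 and 1312 in G3, 2096 and 1612 in A7, with 3137 and 2907 in B2. G3 lay below S2 and B2 above it. Of all tested genes 21.1% had both G3 libraries below both of S2, and 13.1% had both B2 libraries above both of S2. Against S2, ap did not pass the test in B2, with or without the block. In G3 ap fell with the block (log2 fold change -0.64, SE 0.10, edgeR adjusted p = 0.0099, or 0.146 without), and G3 was below B2 by -1.16 without the block (SE 0.14, edgeR adjusted p = 0.0385). On the antisense strand ap had 7831 and 4708 counts in S2 and 306 and 71 in G3. A7 had 7306 and 2634 antisense counts, and B2 had 8062 and 3318. No antisense test of ap is given here. The GATA factor gene pnr had 2317 and 2340 CPM in S2 and between 2171 and 3199 CPM in the clones.

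Among the 23 target genes that could be tested, 0 passed without the block in any clone against S2. Of all tested genes 0.603%, 0.375% and 0.0104% did in G3, A7 and B2. With the block 1 of 23 passed, ap in G3, where 5.85% of all genes did. Their log2 fold changes had a median of -0.67 for G3, -1.26 for A7 and -1.56 for B2. These medians rest on S2 replicate 1. Some of the 23 genes passed the filter only with that library, where they were high, so the negative sign cannot show a fall of the targets. The Hox gene Ubx had 14.6 CPM there and 0.176 CPM in S2 replicate 2, with 6.09 and 0.776 CPM in G3, 2.55 and 0.784 in A7, while B2 had 2.47 and 0.856. Without S2 replicate 1 the medians were 1.47, 2.03 and 1.80 over 17 tested genes, beside 0.005, -0.004 and 0.012 over all tested genes. S2 replicate 2 alone then stood for S2, with 137 sense counts over the 34 low targets. Low targets passed the 1 CPM filter largely through the clone libraries, so the sign of these medians cannot show a rise of the targets. The gene with the highest mean change was esg (0.232 and 0 CPM in S2, 1.67 and 0.971 in G3). A7 had 1.98 and 0.392 CPM of esg, and B2 had 0.118 and 0 CPM. It reached 1 CPM only in G3 replicate 1, from 17 counts, and A7 replicate 1, from 21 counts. It could be tested only through these libraries, where it was high, so its rank is not evidence of a rise. The gene with the lowest mean change was salr (3.59 and 0.176 CPM in S2, 0.688 and 0.194 in G3). It reached 1 CPM only in S2 replicate 1, from 31 counts, and A7 replicate 1, from 12 counts. Its test thus hung on the S2 library where it was high, and its rank is not evidence of a fall. Neither esg nor salr passed the test (edgeR adjusted p at least 0.438 in G3).

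The reads on the 34 low targets came from both strands. In S2 replicate 1 they had 1110 sense and 1150 antisense counts, in S2 replicate 2 only 137 and 66. The antisense share was between 46.9% and 50.9% in the 4 replicate 1 libraries and between 27.3% and 42.4% in the replicate 2 libraries. S2 replicate 1 was the highest library for 23 of the 34 genes on sense counts and for 27 on antisense counts. The part of this signal in the target medians was not tested beyond leaving the library out.

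**Figure D5:**
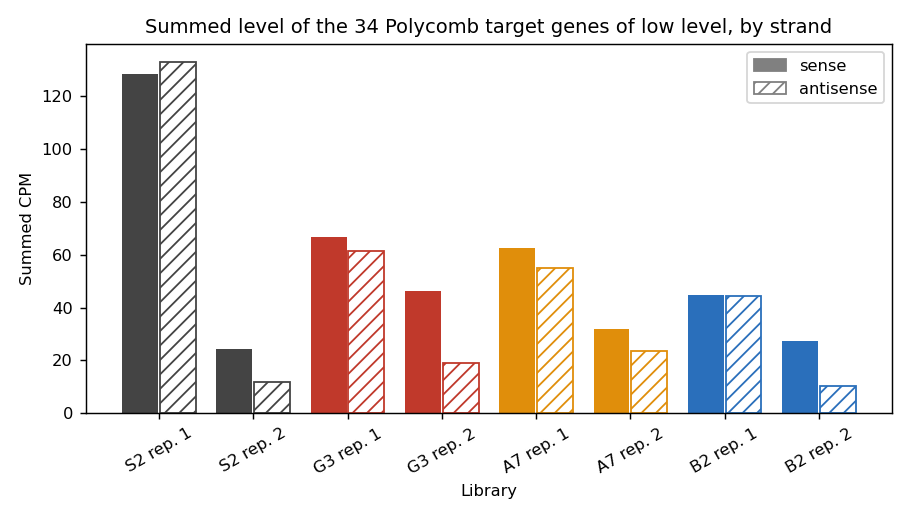
Summed CPM (y axis, from 0) of the 34 Polycomb target genes of low level, for each library (x axis), with filled bars for sense and hatched bars for antisense. S2 replicate 1 is the highest at 128.6 sense and 133.2 antisense CPM, and S2 replicate 2 is at 24.2 and 11.6 CPM.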

How the data were processed

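Nascent RNA was analyzed from 8 libraries, and 4 chromatin samples of the series were not used here. The authors trimmed adaptors, aligned reads to dm3 with Bowtie 0.12.7, kept reads with a single place of alignment, separated strands, and deposited sense and antisense counts per gene without normalization. The columns of the second series carry another replicate number in the tables and were taken as replicate 2 by elimination. No column with values of other samples was set aside (0 columns).

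Sense counts were tested in R 4.3.3 with edgeR 4.0.16 (quasi-likelihood test, TMM, 1 coefficient per line, all 8 libraries) on genes that reached 1 CPM in 2 or more libraries. Antisense counts were tested with the sense library sizes and factors (0.949 to 1.065). P-values were adjusted by Benjamini-Hochberg over all tested genes, and an adjusted p under 0.05 was a call. CPM were scaled by TMM. A library needs between 0.283 and 0.642 CPM for 3 counts. Wilson intervals cover counting error only, and those of log2 fold changes include the spread between libraries.

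The replicate number as a block was an alternative. Same-numbered libraries deviated together, with correlations between 0.480 and 0.600 over the 6 pairs of lines, so the numbers were taken to pair the libraries. Other alternatives were DESeq2 1.42.0, library size alone, other filters, the 2 lines compared, sums of ph genes or strands, and leaving out each library. Members and gene lists were chosen with earlier results of these data known. Named were all members, listed genes called in any clone, the largest rise and fall of each list, and the 5 most similar genes.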

Additional observations from a re-analysis of the deposited data

Results flagged for a closer look

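The following results differed between mutant clones in a direct edgeR test, with the log2 fold change given for each. For ph-p, G3 was above B2 by 1.59 with the replicate block (SE 0.30, adjusted p = 0.0248), and both G3 libraries exceeded both B2 libraries. The share of all tested genes with both G3 libraries above both of B2 was not counted. For ap, G3 against B2 gave -1.16 without the block (SE 0.14, adjusted p = 0.0385) and -1.16 with it (edgeR adjusted p = 0.000800), and A7 against B2 gave -0.71 with it (edgeR adjusted p = 0.00688). For jing, with the block, G3 against A7 gave -0.65 (edgeR adjusted p = 0.0344) and G3 against B2 gave -0.58 (adjusted p = 0.0434). The genes psq, z, toy and tj were added after their values were seen, all with the block. The recruiter gene psq gave 0.43 for G3 against A7 (edgeR adjusted p = 0.0330), and the recruiter gene z gave -0.72 for A7 against B2 (adjusted p = 0.0183). The target gene toy, at 0.214 to 8.30 CPM, gave -2.23 for G3 against A7 (edgeR adjusted p = 0.0315) and 3.95 for A7 against B2 (adjusted p = 0.00529). The gonadal marker tj, of the list of other cell types, gave 1.11 for G3 against A7 (edgeR adjusted p = 0.00731) and 0.75 for G3 against B2 (adjusted p = 0.0286), with 39.7 and 30.7 CPM in G3 and 30.2 and 20.4 CPM in S2. Its part in the value of ph-p for G3 against B2 was not tested.

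Among the hemocyte markers, all with the block, Pxn differed by 1.18 between G3 and A7 (edgeR adjusted p = 0.0112) and by -1.29 between A7 and B2 (adjusted p = 0.00536). The value of ush was -0.47 for G3 against A7 (edgeR adjusted p = 0.0309). For crq it was -0.58 for G3 against B2 (edgeR adjusted p = 0.0304) and -0.59 for A7 against B2 (adjusted p = 0.0281). Hml gave 3.27 for A7 against B2 (edgeR adjusted p = 0.0322).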

How the results depend on the processing

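With the replicate block the calls on sense counts were 562 in G3, 353 in A7, 41 in B2, 191 for the mean of the clones, 287 for G3 against A7, 370 for G3 against B2 and 375 for A7 against B2, and on antisense counts 148, 108 and 29 in G3, A7 and B2. In the same order DESeq2 gave 206, 168, 38, 101, 97, 152 and 179, then 65, 39 and 18, and no filter on low counts gave 171, 156, 32, 90, 79, 110 and 167, then 109, 83 and 49. The 2 lines alone gave 15 calls in G3, 12 in A7, 0 in B2 and 15 for G3 against B2, and 0 on antisense in G3 and A7. Library size alone gave 0 in B2, and a CPM of at least 5 gave 45 for A7 against B2 and 26 on antisense in G3. Each of the block, DESeq2 and no filter called 1 of the 9 Polycomb genes, ph-p, in G3 and in G3 against B2, and the block changed no other call of these genes against S2 or between clones. When a library was left out, calls on sense counts ranged over 17 to 46 in G3, 12 to 28 in A7, 0 to 2 in B2, 1 to 16 for the mean, 0 to 20 for G3 against A7, 6 to 31 for G3 against B2 and 0 to 51 for A7 against B2, and on antisense over 9 to 14 in G3 and 0 to 0 in A7.

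The sign of ph-p in G3 and in A7 held under each alternative that kept ph-p apart, with values of up to 1.92 and 1.51 on the log2 scale. The sum of the ph genes is another feature, which holds mostly ph-d reads. It gave 0.32 in G3, 0.14 in A7 and 0.11 in B2. None of the values that changed sign was called. In G3, Psc was -0.0733 and Su(z)12 -0.00346 with library size alone, Sce 0.00550 with DESeq2 and 0.0157 with the 2 lines, and E(z) 0.0237 with the block, 0.0300 with DESeq2, 0.0279 at a CPM of at least 5 and 0.0400 with the 2 lines. In A7, Psc was 0.00881 with DESeq2, 0.0171 at a CPM of at least 5 and 0.0198 with the 2 lines. There, esc was -0.0183 with library size alone and -0.00173 with the strands summed, and Su(z)12 was 0.00165 at a CPM of at least 5, 0.00142 with the 2 lines and 0.0351 with the strands summed. In B2, Sce was -0.0829 and esc -0.0388 with library size alone. With 1 library left out, values in G3 ranged over -0.0635 to 0.20 for Psc, -0.19 to 0.15 for Su(z)2, -0.12 to 0.13 for Sce and -0.20 to 0.25 for E(z). In A7 they ranged over -0.0716 to 0.17 for ph-d, -0.13 to 0.14 for Psc, -0.22 to 0.13 for Su(z)2, -0.25 to 0.0351 for Sce, -0.42 to 0.0248 for E(z), -0.0583 to 0.10 for esc and -0.10 to 0.0407 for Su(z)12. In B2 they ranged over -0.34 to 0.31 for ph-p, -0.27 to 0.54 for Psc, -0.10 to 0.55 for Su(z)2, -0.11 to 0.16 for Sce, -0.22 to 0.21 for E(z) and -0.0795 to 0.18 for esc. The target median ranged over -1.48 to 1.47 in G3, -2.45 to 2.03 in A7, -2.82 to 1.80 in B2 and -1.90 to 1.60 for the mean. Each was positive only without S2 replicate 1, where low targets passed the filter largely through the clones. With S2 replicate 1 kept, some targets passed the filter only because of that library. Where a group kept 1 library, it was assumed to vary like the others. The cause of these changes was not tested. The lowest count of a Polycomb gene, 16 sense counts of ph-p in B2 replicate 2, limits the precision of that gene.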
